A study of Danio rerio with 23 samples.

Results

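Erythrocytes carry haemoglobin, in which globin chains hold haem, and both parts are made by genes that are switched on together as red cells form. The haem of red cells starts with Alas2, the erythroid enzyme of the first step of haem synthesis, and its iron reaches the mitochondrion through the importer mitoferrin. The membrane is held in shape by a protein skeleton that is anchored to the anion exchanger band 3, and the transcription factor Gata1 switches on most of these genes. The red cells of fish keep their nucleus, and blood runs through the liver, so that liver RNA holds transcripts of these genes beside those of hepatocytes.

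The 9 genes chosen by name were the adult globins hbaa1, hbaa2, hbba1 and hbba2, the haem synthesis gene alas2, the mitoferrin gene slc25a37, the band 3 gene slc4a1a, the protein 4.1 gene epb41b and gata1a. Of these, 8 had a probe set of their own among the 20705 genes that did, and each was read on its brightest probe set. The gene hbba1 was found only on probe sets shared with other globins and is described apart. In the zebrafish RefSeq annotation hbaa2, hbba2, ba1l, hbaa1 and hbba1 lie next to each other in this order, with 0 protein-coding genes between neighbours. Globins have near-identical copies, so that a globin probe set may also read its relatives.

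Liver RNA of adult zebrafish of 6 months was measured on 23 ZebGene 1.1 ST arrays, and every fish had been irradiated, with γ-rays by the labels and X-rays by one passage of the methods. At 40 Gy the groups were HBx,src with Oligo-Fucoidan (OF + R, 4 arrays), HBx,src without it (R, 3 arrays), WT with OF + R (2 arrays) and WT with R (2 arrays). At 10 Gy they were HBx,src,p53- with OF + R (5 arrays), HBx,src,p53- with R (3 arrays), WT with OF + R (2 arrays) and WT with R (2 arrays). Oligo-Fucoidan, a sulfated polysaccharide of brown seaweed, was given by gavage at 300 mg/kg before irradiation and again after it, while R fish had a mock treatment. WT fish were of the AB strain on a normal diet. The transgenic fish expressed the hepatitis B virus protein HBx and src from the hepatocyte promoter fabp10a, with 1 p53 copy mutated in HBx,src,p53- fish, and had diet-induced obesity. Genotype and diet therefore cannot be told apart in a comparison of transgenic with WT fish. The 40 Gy arrays were labelled batch 1 and the 10 Gy arrays batch 2, so that dose and batch cannot be told apart either, and whether an array held the liver of 1 fish is not given in the sources used here.

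Each array gives a log2 signal per probe set, so that a difference of 1 means a doubling. Array medians were 2.02 to 2.21 at 40 Gy and 2.46 to 2.58 at 10 Gy, and levels are compared only within a batch. As checks of the labelled tissue, all 15 measured hepatocyte markers lay above the median of every array, and their mean log2 signal was 11.24 to 12.28. Arrays of a group are separate samples by their labels only, so that p-values measure the spread between arrays, and their small number limits the precision. Some livers differed in other ways. The egg yolk precursor vtg2, which the liver of egg-laying females makes in quantity, had a log2 signal of 3.69 and 6.51 in arrays 1 and 4 of HBx,src,p53- OF + R, against 13.85 to 13.90 in the other 3 arrays of that group, although the protocol gives the transgenic fish as female. In WT 10 Gy vtg2 was 3.96 and 3.18 in OF + R livers and 13.71 and 13.89 in R livers. The 12 ovary and oocyte markers had a mean of 2.01 and 2.02 in the same OF + R livers and 5.98 and 5.73 in the R livers. The sex of the WT fish is not given in the sources used here.

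In WT fish that received 10 Gy, 7 of the 8 erythrocyte genes were higher in OF + R than in R livers, and 0 were lower. These were alas2, hbaa1, hbba2, gata1a, epb41b, hbaa2 and slc4a1a, with log2 fold changes of 1.22 to 3.40, while slc25a37 did not pass the test. A gene was called when its adjusted p in limma, adjusted by Benjamini-Hochberg across the 75212 probe sets of the array, was under 0.05. Of all genes, 9.18% were called in this comparison and 2.60% were called higher. The median log2 fold change of the 8 genes was 2.09, against 0.03 over all genes. Every OF + R array lay above every R array for 8 of the 8 genes, as it did for 30.3% of all genes.

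**Figure D1:**
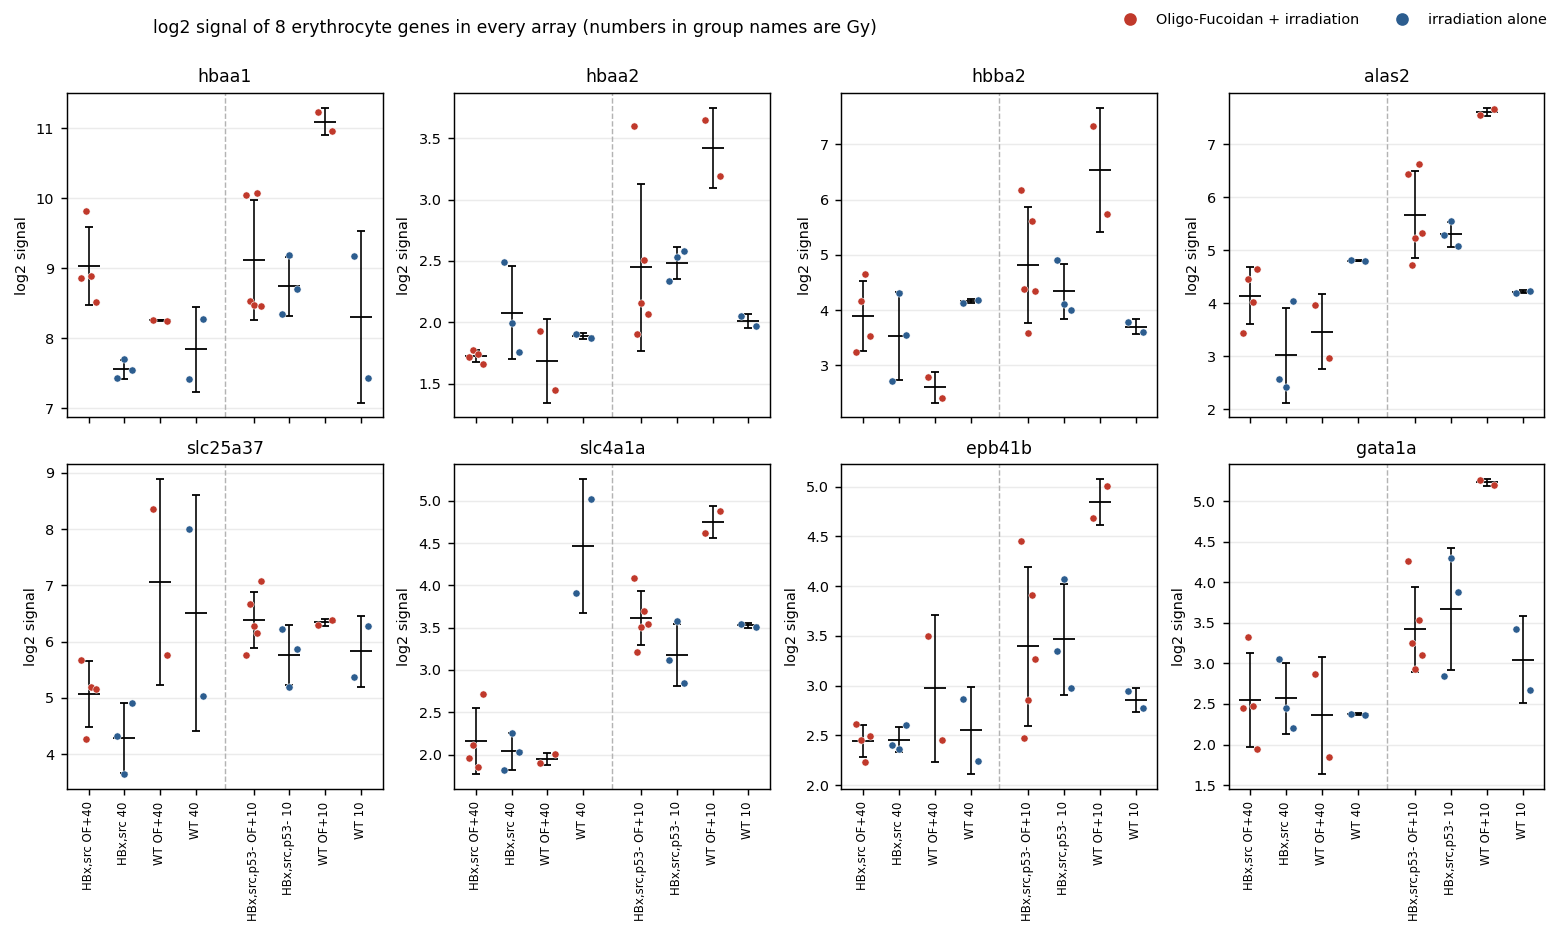
Log2 signal (vertical axis) of the 8 erythrocyte genes in each of 23 arrays, by group (horizontal axis), with points for arrays and the mean ± SD as bars. The dashed line parts the 40 Gy from the 10 Gy batch, and red points are OF + R and blue points R. The WT OF + 10 Gy arrays were the highest of their batch in alas2, with 7.57 and 7.67.

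The globins come first, since they are the most abundant products of red cells. The adult alpha-globin hbaa1 had a log2 signal of 11.23 and 10.96 in WT OF + 10 Gy livers, against 9.18 and 7.44 in WT 10 Gy livers. Its mean was thus 11.09 ± 0.19 in OF + R and 8.31 ± 1.23 in R (SD, n = 2 each), a log2 fold change of 2.78 (SE 0.61, limma adjusted p = 0.00855). Both OF + R livers were high, and the spread lay in the R livers. The SE draws on the spread within all 8 groups and not on these livers alone. Within the 10 Gy batch hbaa1 was highest in WT OF + R with no overlap to the next group, and the other 3 groups each overlapped the next in order of their means. In HBx,src,p53- livers it was 10.05, 8.53, 8.48, 10.08 and 8.46 with OF + R and 8.35, 9.19 and 8.70 with R, which overlapped (log2 fold change 0.38, SE 0.44, limma adjusted p = 0.773).

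At 40 Gy the highest hbaa1 values were in HBx,src OF + R livers. They were 8.87, 9.82, 8.90 and 8.53, against 7.43, 7.70 and 7.55 in HBx,src R livers, and the arrays of these groups did not overlap. The log2 fold change was 1.47 with a 95% interval of 0.49 to 2.44, but the limma adjusted p was 0.145, so that hbaa1 was not called. In WT livers at 40 Gy hbaa1 was 8.26 and 8.25 with OF + R and 7.41 and 8.27 with R, which overlapped.

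The adult beta-globin hbba2 had a log2 signal of 7.33 and 5.74 in WT OF + 10 Gy livers, against 3.79 and 3.61 in WT 10 Gy livers. The log2 fold change was 2.83 (SE 0.72, limma adjusted p = 0.0253). Here the spread lay in the OF + R livers, whose SD was 1.13, against 0.13 in R livers (n = 2 each). The 5 HBx,src,p53- OF + R livers had 6.18, 4.39, 3.58, 5.62 and 4.34, and the 3 R livers 4.90, 4.10 and 4.01, with overlap. At 40 Gy hbba2 was 2.79 and 2.40 in WT OF + R livers and 4.13 and 4.19 in WT R livers, lower with OF in both arrays, but this was not called (log2 fold change -1.56, limma adjusted p = 0.262).

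The second alpha-globin, hbaa2, was dim. Its log2 signal lay above the array's median in 1 of 11 arrays at 40 Gy and in 5 of 12 at 10 Gy, among them both WT OF + 10 Gy livers, where it was 3.65 and 3.19. In WT 10 Gy livers it was 2.05 and 1.97, below the median of both arrays. The log2 fold change was 1.41 (SE 0.39, limma adjusted p = 0.0408), and set against the array medians instead of its own R values it was 0.89, since a signal this low may be background. A second, dimmer probe set of hbaa2 had 1.92 and 1.56 in WT OF + 10 Gy and 1.70 and 1.37 in WT 10 Gy livers. These values overlapped, and all lay below the array medians.

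The beta-globin hbba1 was read only together with ba1l, and on other probe sets also with ba2. On the brightest of these shared probe sets, that of hbba1 and ba1l, the log2 signal was 10.57 and 10.83 in WT OF + 10 Gy livers, against 8.75 and 6.76 in WT 10 Gy livers. This was a log2 fold change of 2.95 (SE 0.62, limma adjusted p = 0.00669), close in size to that of hbaa1 and hbba2. The shared signal was also lower in HBx,src,p53- than in WT livers with OF + 10 Gy, by a log2 fold change of -2.29 (limma adjusted p = 0.0496). The dimmest shared probe set was not called in the first of these comparisons (1.92, limma adjusted p = 0.0955). Which of the sharing globins gave the signal cannot be told apart.

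The haem synthesis gene alas2 had the largest log2 fold change of the 8 genes in WT 10 Gy fish. Its log2 signal was 7.57 and 7.67 in WT OF + 10 Gy livers, against 4.20 and 4.24 in WT 10 Gy livers. The mean was 7.62 ± 0.07 in OF + R and 4.22 ± 0.03 in R (SD, n = 2 each), a log2 fold change of 3.40 with a 95% interval of 2.16 to 4.63 (SE 0.59, limma adjusted p = 0.00103). The arrays of each group lay close together and far from those of the other group. It was the only one of the 8 genes called in every alternative that was run for this comparison, leaving out each of its 4 arrays included, with a highest adjusted p of 0.0134. Its second, dimmer probe set gave a log2 fold change of 1.82 (limma adjusted p = 0.00159).

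In the other 3 comparisons of OF + R with R alas2 was not called. In HBx,src,p53- livers with 10 Gy it was 6.44, 4.72, 5.24, 6.63 and 5.33 with OF + R, against 5.28, 5.55 and 5.08 with R. In WT livers with 40 Gy it was 3.96 and 2.97 with OF + R and 4.81 and 4.80 with R, lower with OF in both arrays but not called (log2 fold change -1.34, limma adjusted p = 0.234). HBx,src livers with 40 Gy had 3.44, 4.45, 4.03 and 4.65 with OF + R and 2.58, 2.43 and 4.05 with R, higher on average with OF but overlapping (log2 fold change 1.12, limma adjusted p = 0.288). Within the 10 Gy batch the order of its group means was WT OF + R, HBx,src,p53- OF + R, HBx,src,p53- R and WT R, from high to low, and of the neighbours in this order only the HBx,src,p53- groups overlapped.

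The mitoferrin gene slc25a37 was the 1 gene of the 8 not called in WT 10 Gy fish. Its log2 signal was 6.30 and 6.38 in WT OF + 10 Gy livers, against 5.38 and 6.27 in WT 10 Gy livers, and its log2 fold change of 0.52 had a 95% interval of -1.21 to 2.25 (limma adjusted p = 0.864). An increase as large as that of hbaa2 lies within this interval. At 40 Gy it was 8.35 and 5.76 in WT OF + R livers and 7.99 and 5.02 in WT R livers, so that array 1 of both WT groups was high and the spread within a group (SD 1.83 in OF + R and 2.1 in R) was larger than the difference of their means. With 10 Gy HBx,src,p53- livers had 5.76, 6.67, 6.27, 6.15 and 7.07 with OF + R and 6.22, 5.18 and 5.87 with R. The highest of these was array 5 of OF + R, which was not high in the other genes.

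Both membrane genes were called higher with OF in WT 10 Gy livers. The gene epb41b, for the protein 4.1 that ties the spectrin skeleton to the membrane, had a log2 signal of 4.68 and 5.01 in OF + R livers, against 2.94 and 2.77 in R livers. The log2 fold change was 1.99 (SE 0.50, limma adjusted p = 0.0228). Livers of HBx,src,p53- fish had 4.46, 2.48, 2.86, 3.91 and 3.27 with OF + R and 3.34, 4.08 and 2.98 with R, with overlap. At 40 Gy epb41b lay between 2.23 and 3.50 in all 11 arrays, the groups overlapped throughout, and 0 of the 4 comparisons called it. A second, dimmer probe set of epb41b did not overlap there in WT livers. It had 1.43 and 1.59 with OF + R, below the array medians, and 2.29 and 2.62 with R. HBx,src R livers had 1.41, 1.46 and 1.28 on it. In HBx,src,p53- livers it was 4.29, 2.27, 3.54, 3.30 and 3.12 with OF + R and 1.15, 3.07 and 2.06 with R. In WT 10 Gy livers it was 4.06 and 2.92 with OF + R and 2.19 and 1.59 with R.

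The band 3 gene slc4a1a, whose protein exchanges chloride for bicarbonate and anchors the skeleton, had a log2 signal of 4.62 and 4.88 in WT OF + 10 Gy livers, against 3.55 and 3.51 in WT 10 Gy livers. The log2 fold change was 1.22 (SE 0.35, limma adjusted p = 0.0492), just past the threshold. Livers of HBx,src,p53- fish had 4.09, 3.22, 3.51, 3.70 and 3.55 with OF + R and 3.11, 3.58 and 2.85 with R, with overlap and no call. At 40 Gy slc4a1a was lower with OF in WT livers. It was 1.90 and 2.00 in WT OF + R livers, against 3.91 and 5.02 in WT R livers, a log2 fold change of -2.52 (SE 0.35, limma adjusted p = 0.00145). It was the only one of the 8 genes called lower with OF in that comparison, where 0.758% of all genes were called lower and 4.81% were called in either direction, and 0 were called higher. As both OF + R arrays lay below their own medians, the difference from those medians was -2.41.

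The transcription factor gata1a had a log2 signal of 5.26 and 5.20 in WT OF + 10 Gy livers, against 3.42 and 2.67 in WT 10 Gy livers. The log2 fold change was 2.19 (SE 0.51, limma adjusted p = 0.0152). In HBx,src,p53- livers it was 4.26, 3.25, 2.93, 3.54 and 3.11 with OF + R and 2.84, 4.30 and 3.87 with R, with overlap and no call. At 40 Gy gata1a lay at 1.85 to 3.33, close to the array medians, and each group overlapped the next in the order of their means. Its other 2 probe sets were dimmer, and neither was called in WT 10 Gy fish (log2 fold changes 0.65 and 0.18, limma adjusted p = 0.252 and 0.831). On the dimmest of them gata1a was called lower with OF in WT 40 Gy fish (log2 fold change -1.24, limma adjusted p = 0.0146), where both OF + R arrays lay below their own medians and the difference from these was -0.51. The brightest gave -0.01, so that the probe sets of gata1a disagree there.

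**Figure D2:**
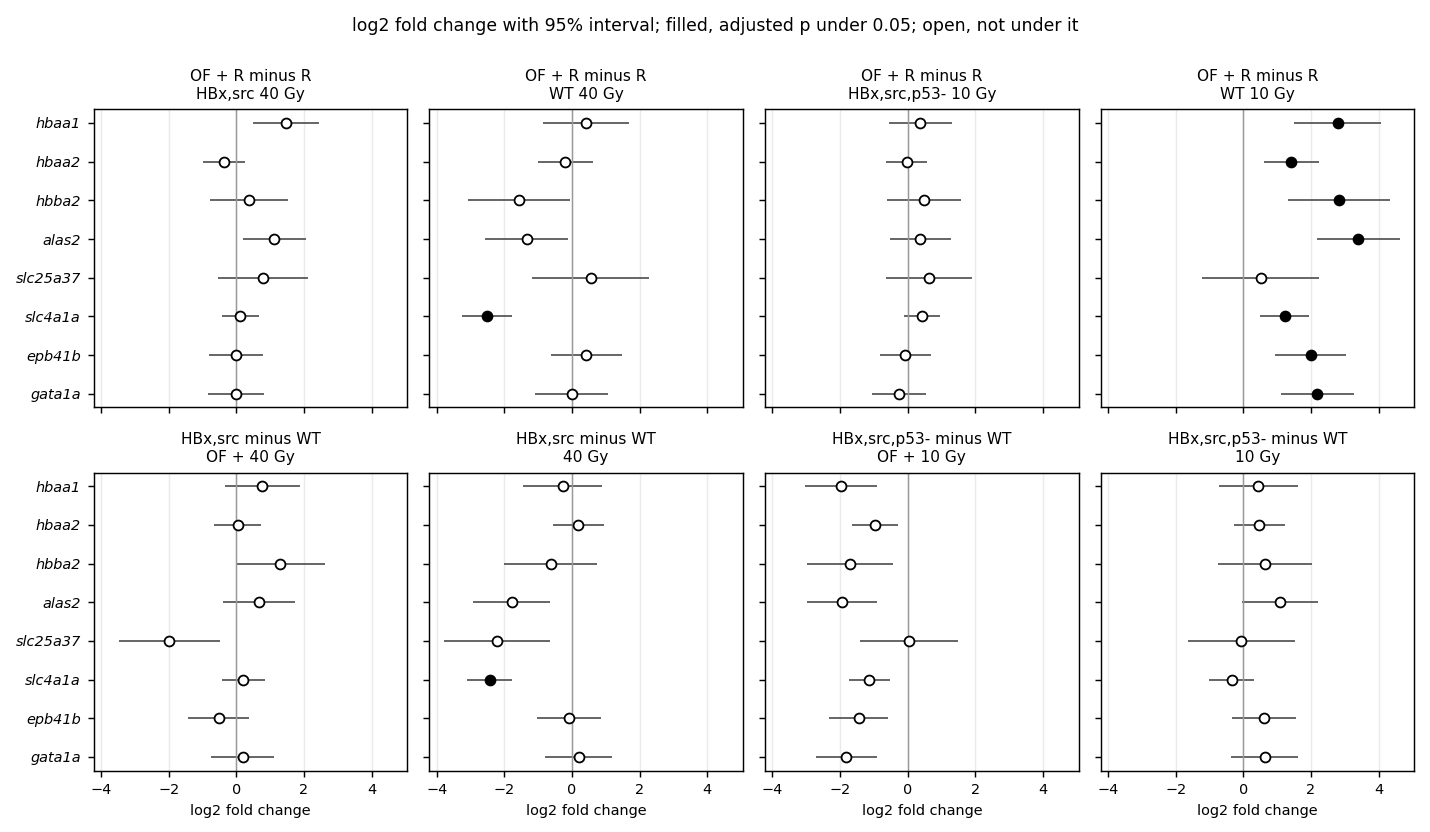
Log2 fold change (horizontal axis) of the 8 genes (vertical axis) in 8 comparisons, as points with 95% intervals. The upper row sets OF + R against R and the lower row transgenic against WT fish. Filled points had an adjusted p under 0.05, which 7 genes reached in WT 10 Gy and slc4a1a at 40 Gy in WT and in HBx,src against WT.

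The call in WT 10 Gy fish rests on 2 arrays a group. With 1 array left out, 1 gene was called without WT 10 Gy array 2 or without WT OF + 10 Gy array 1, and 3 were called without WT 10 Gy array 1 or without WT OF + 10 Gy array 2. A fit to these 4 arrays alone called 2 genes, quantile normalization of all arrays left 3, and each of the 8 genes stayed above 0 in these fits. The share of all genes called in each of these fits is not given here, so the counts cannot be set against it. Here and below, in a piece of liver with its blood, more red cells and more of these transcripts per red cell cannot be told apart.

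Markers of other cell types also differed in the same WT 10 Gy livers, where 9.18% of all genes were called and 2.60% were called higher. Of the 12 ovary and oocyte markers 11 were called lower in OF + R than in R livers (median log2 fold change -4.04), and 9 and 8 of the 12 lay below the array median in the OF + R livers, against 1 in each R liver. The 12 exocrine pancreas markers had a mean of 5.56 and 4.39 in OF + R and 7.29 and 6.94 in R. Of these 0 were called, and 9 were lower by limma at an unadjusted p under 0.05. The share of all genes lower at that unadjusted threshold is not given here, so the 9 cannot be set against it. The 15 hepatocyte markers had a mean of 12.28 and 12.23 in OF + R and 11.68 and 11.32 in R, with 1 called higher. The 7 endothelium markers had a mean of 5.29 and 5.83 in OF + R and 4.79 and 4.94 in R, with 1 called higher. Likewise vtg2 was low in both OF + R livers (3.96 and 3.18) and high in both R livers (13.71 and 13.89). The treatment and the state of vtg2 and the ovary markers therefore cannot be told apart in these livers. The part of these differences in the values of the erythrocyte genes was not tested.

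In HBx,src,p53- fish with 10 Gy, 0 of the 8 genes were called between OF + R and R, where 5.83% of all genes were, and their median log2 fold change was 0.37. By limma at an unadjusted p under 0.05 the number was also 0. The 5 OF + R arrays were spread unevenly. Arrays 1 and 4 were the highest of the 5 for 7 of the 8 genes, all but slc25a37, and this was so for 22.0% of all genes. In alas2 they had 6.44 and 6.63, against 4.72 to 5.33 in the other 3. These are the arrays with low vtg2, and their hepatocyte marker means of 12.25 and 12.19 were also the highest of the group. Without them the log2 fold changes of alas2, hbaa1 and hbba2 were -0.21, -0.25 and -0.23 in place of 0.37, 0.38 and 0.48, and 0 genes were called.

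The effect of OF at 10 Gy differed between HBx,src,p53- and WT fish for 2 of the 8 genes by the test of the difference itself, which called 6.81% of all genes. The difference was -3.03 on the log2 scale for alas2 (SE 0.73, limma adjusted p = 0.0222) and -2.44 for gata1a (SE 0.64, adjusted p = 0.0390). For slc25a37 it was 0.11, and for the other 5 genes it was -0.79 to -2.41 without a call. After quantile normalization of all arrays gata1a was not called, while alas2 was. Without arrays 1 and 4 of HBx,src,p53- OF + R, the highest of their group in 7 of the 8 genes, the number called was 6, where the lower mean and spread of that group follow from leaving them out. By the same test 11 of the 12 ovary and oocyte markers were called, as the WT R livers were high in them, and their part in the result was not tested.

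Set side by side with OF + 10 Gy, 7 of the 8 genes were lower on average in HBx,src,p53- than in WT livers, with slc25a37 at 0.04. The log2 fold changes of the 7 were -0.97 to -1.97, but 0 genes were called, where 1.06% of all genes were, and the smallest adjusted p was 0.0613 for gata1a. At an unadjusted p under 0.05, 7 were lower, against 6.24% of all genes. For alas2, slc4a1a, hbaa1, epb41b and gata1a every HBx,src,p53- array lay below every WT array, as it did for 8.82% of all genes. Without array 1 of HBx,src,p53- OF + R 6 genes were called lower, without array 4 there were 2, and without both there were 7. As these arrays were the highest of their group for 7 of the 8 genes, leaving them out lowers the mean of the group and its spread by construction, and the count of 0 over all 5 arrays stands as the result. With R alone 0 genes were called, where 13.8% of all genes were. In that comparison alas2 was 5.28, 5.55 and 5.08 in HBx,src,p53- and 4.20 and 4.24 in WT livers, a log2 fold change of 1.09 (95% interval -0.04 to 2.22, limma adjusted p = 0.314). At an unadjusted p under 0.05 the number was also 0. These comparisons share their WT arrays with the comparison of OF + R with R in WT fish. With OF + 10 Gy vtg2 was 3.96 and 3.18 in WT livers. In HBx,src,p53- livers it was 3.69 and 6.51 in arrays 1 and 4 and 13.85 to 13.90 in the other 3 arrays. With R alone the ovary and oocyte markers had a mean of 5.98 and 5.73 in WT and 2.23 to 2.80 in HBx,src,p53- livers. The part of these differences in the values of the 8 genes was not tested.

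**Figure D3:**
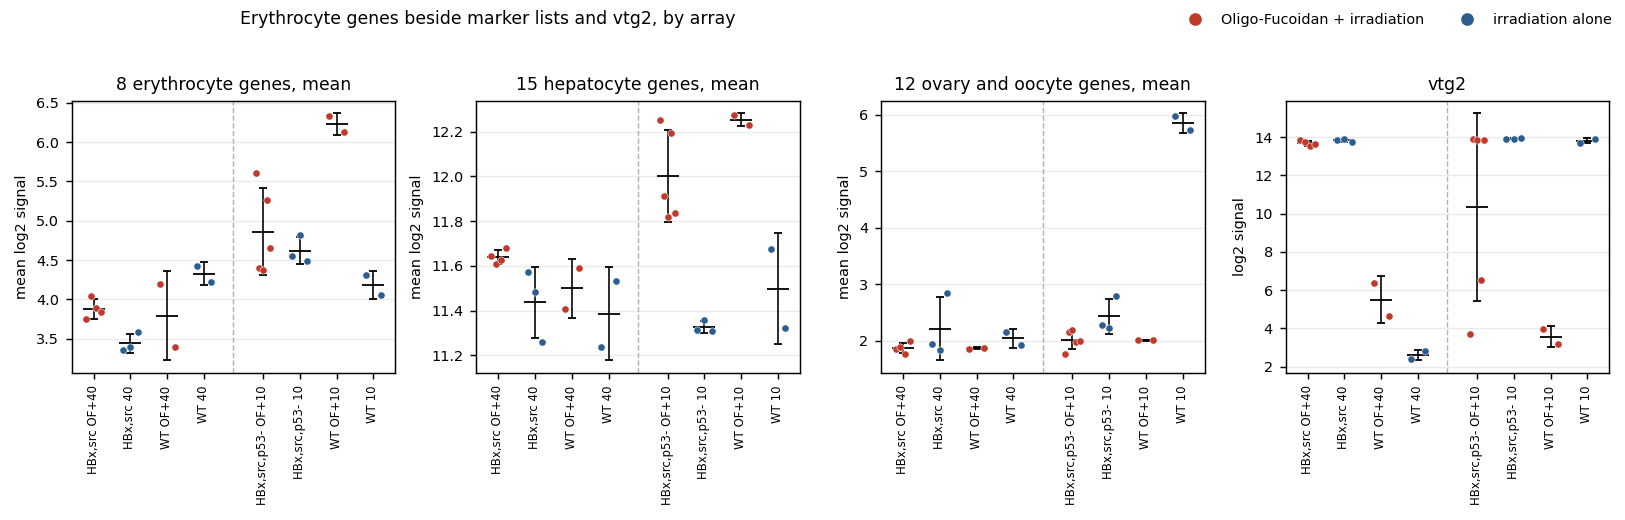
Mean log2 signal (vertical axis) of the 8 erythrocyte, 15 hepatocyte and 12 ovary and oocyte genes and the log2 signal of vtg2 in each array, by group, with the mean ± SD as bars. At 10 Gy the arrays with the lowest vtg2 are both WT OF + R arrays and arrays 1 and 4 of HBx,src,p53- OF + R, and the erythrocyte mean was 6.33 and 6.13 in the first pair and 5.61 and 5.27 in the second, above the other arrays of the batch.

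At 40 Gy vtg2 was 13.54 to 13.92 in all 7 HBx,src arrays and 2.42 to 6.36 in the 4 WT arrays. In a comparison of HBx,src with WT livers vtg2 state, genotype and diet therefore cannot be told apart. With R alone the mean of the 8 genes was 3.35, 3.39 and 3.58 in HBx,src and 4.43 and 4.22 in WT livers, which did not overlap. With OF + R it was 3.75 to 4.05 in the 4 HBx,src livers and 4.20 and 3.39 in the WT livers, which did. In HBx,src fish 0 of the 8 genes were called between OF + R and R, where 2.32% of all genes were, and 2 were higher at an unadjusted p under 0.05, namely alas2 and hbaa1, against 11.5% of all genes. With R alone 1 of the 8 genes was called lower in HBx,src than in WT livers and 0 were called higher, where 1.39% of all genes were called lower and 2.67% in either direction. This was slc4a1a, with 1.82, 2.26 and 2.03 in HBx,src and 3.91 and 5.02 in WT livers (log2 fold change -2.43, SE 0.32, limma adjusted p = 0.000781). At an unadjusted p under 0.05 the lower genes were slc4a1a, alas2 and slc25a37, against 8.16% of all genes. In these 3 every HBx,src R array lay below both WT R arrays, as in 13.1% of all genes. For alas2 the log2 fold change was -1.79 (95% interval -2.92 to -0.66, limma adjusted p = 0.102), and it was called after quantile normalization of all arrays and without HBx,src R array 3. For slc25a37 it was -2.22 (95% interval -3.80 to -0.64, limma adjusted p = 0.152), with 4.31, 3.65 and 4.90 in HBx,src and 7.99 and 5.02 in WT livers, and it was called without WT R array 2. With OF 0 of the 8 genes were called between HBx,src and WT livers, where 1.41% of all genes were, and 1 was lower at an unadjusted p under 0.05, slc25a37, against 9.35% of all genes.

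For slc4a1a at 40 Gy, then, only the WT R livers were high, and the other 9 arrays of the batch lay between 1.82 and 2.72. The effect of OF differed between HBx,src and WT fish by 2.64 on the log2 scale (SE 0.44, limma adjusted p = 0.0225), and it was the 1 gene of the 8 for which that difference was called, against 0.227% of all genes. Each call of slc4a1a at 40 Gy draws on the same 2 WT R arrays. The exocrine pancreas markers had a mean of 3.51 and 4.14 in WT OF + R and 4.71 and 6.06 in WT R livers with 40 Gy, and the 12 neutrophil and macrophage markers 4.24 and 4.81 in OF + R and 3.67 and 2.99 in R, with 0 called in either list. The 7 biliary markers had a mean of 7.29 and 7.62 in OF + R and 6.24 and 6.80 in R, with 2 called higher and a median log2 fold change of 1.24. The 7 endothelium markers had 4.15 and 5.09 in OF + R and 4.33 and 3.96 in R, with 1 called higher. Of all genes 4.81% were called in this comparison of WT livers. In these livers vtg2 was 6.36 and 4.64 with OF + R and 2.42 and 2.81 with R. The part of these markers and of vtg2 in the result was not tested. A fit to the groups of the comparison alone, which left the fold changes as they were, called slc4a1a in neither WT OF + R against R (limma adjusted p = 0.413) nor HBx,src against WT (adjusted p = 0.203). It called 0 of all 75212 probe sets in the first of these and 23 higher and 14 lower in the second.

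The effect of OF also differed between WT fish with 10 Gy and WT fish with 40 Gy. It was higher at 10 Gy by 4.74 on the log2 scale for alas2 (SE 0.83, limma adjusted p = 0.00181), by 3.74 for slc4a1a (SE 0.49, adjusted p = 0.000102) and by 4.40 for hbba2 (SE 1.02, adjusted p = 0.0183). This was 3 of the 8 genes, against 6.92% of all genes. The groups differ in dose and batch together, and by the same test 9 of the 12 ovary and oocyte markers were lower. Their part in the result was not tested.

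The other genes of red cells were taken from a list of 53 measured genes in 6 roles. In WT 10 Gy livers 10 of the 53 were higher with OF and 0 were lower, with a median log2 fold change of 0.35 against 0.03 over all genes, of which 2.60% were called higher. With any 1 of the 4 arrays left out 4 to 5 of the 53 were called, after quantile normalization of all arrays 6 and in a fit to these 4 arrays alone 2. The share of all genes called in these other fits is not given here. The 10 genes called belong to 4 of the 6 roles. In the membrane and its skeleton they were the spectrin gene sptb, the adducin gene add2 and rhag, for the Rh-associated glycoprotein. Among the regulators they were klf1, zfpm1, whose product is the Gata1 partner Fog1, and epor, for the erythropoietin receptor. In iron uptake it was the transferrin receptor tfr1a, which red cell precursors need in zebrafish, and among the enzymes and others the carbonic anhydrases cahz and ca2 and creg1.

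Among the called genes, the carbonic anhydrase cahz was also picked from these data for its likeness to the members, as given below. Its log2 signal averaged 6.18 ± 0.18 in WT OF + 10 Gy and 3.48 ± 0.89 in WT 10 Gy livers (SD, n = 2 each), a log2 fold change of 2.69 (limma adjusted p = 0.000818). The gene zfpm1 averaged 7.84 ± 0.12 with OF + R and 6.09 ± 0.05 with R (log2 fold change 1.75, limma adjusted p = 0.00179), and tfr1a 5.93 ± 0.07 and 4.08 ± 0.76 (1.84, adjusted p = 0.00667). In the membrane add2 averaged 4.84 ± 0.09 with OF + R and 3.32 ± 0.27 with R (1.51, limma adjusted p = 0.00771). Other bright genes of these roles did not pass the test. The glycophorin gene gypc had a log2 fold change of 1.16 (limma adjusted p = 0.236), the water channel aqp1a.1 0.74 (0.424), hemgn 1.02 (0.255), klf3 0.06 (0.974), tfr1b 0.84 (0.729), the iron carrier slc11a2 -0.35 (0.774), the peroxiredoxin gene prdx2 0.83 (0.257), catalase (cat) 0.23 (0.830) and tspo 0.11 (0.953).

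**Figure D4:**
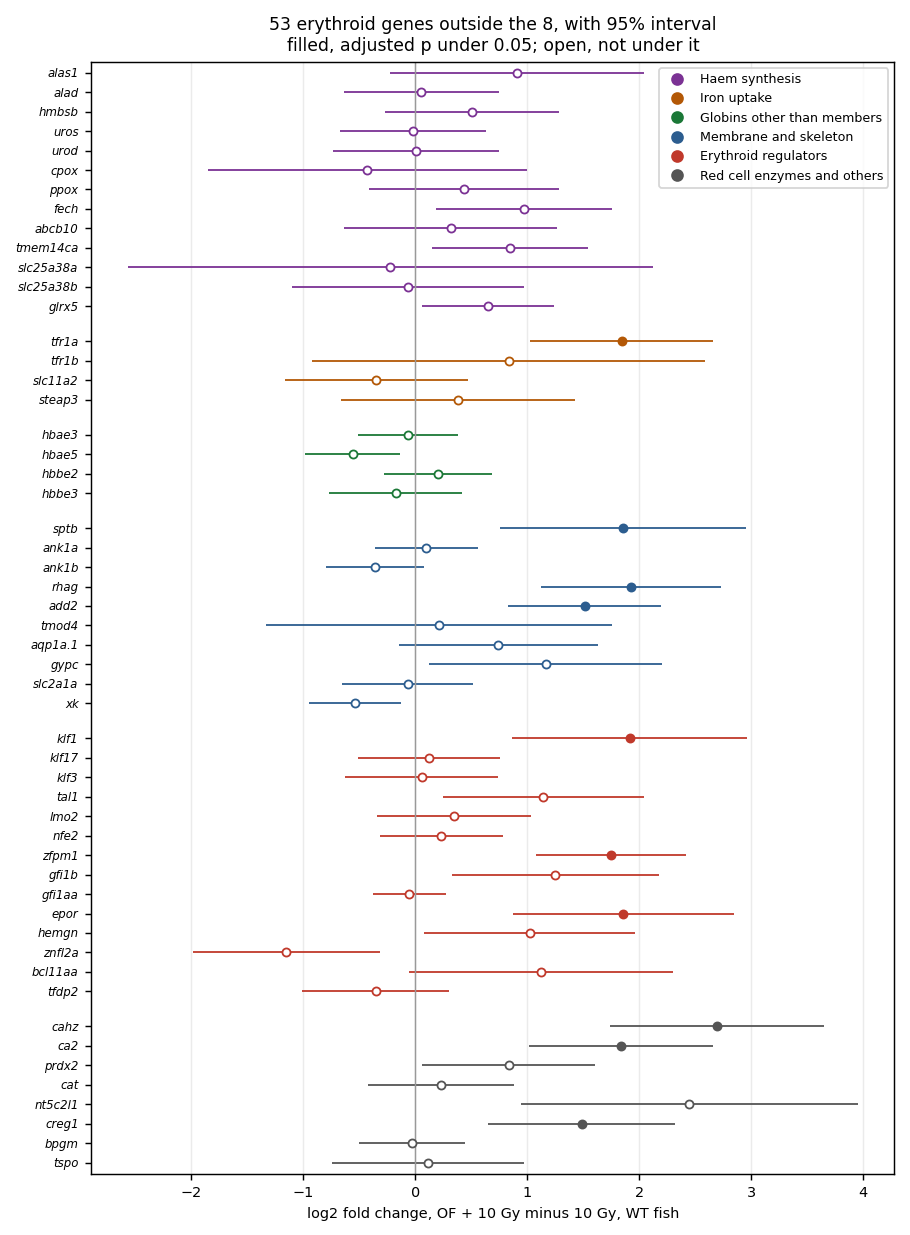
Log2 fold change with its 95% interval (horizontal axis) between OF + R and R in WT 10 Gy livers for the 53 other erythroid genes (vertical axis), coloured by role. The 10 filled points had an adjusted p under 0.05 and all lie above 0, while 0 of the 13 haem synthesis genes and 0 of the 4 embryonic globins were among them.

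By role the counts were 1 of 4 in iron uptake, 3 of 10 in the membrane and skeleton, 3 of 14 among regulators and 3 of 8 among enzymes and others. Of the 13 haem synthesis genes 0 were called in WT 10 Gy fish, with a median log2 fold change of 0.32, and 3 were higher at an unadjusted p under 0.05, as were 11.8% of all genes. The bright ones were alas1, which makes the same first step as alas2 but in all tissues (0.91, limma adjusted p = 0.451), tmem14ca (0.84, 0.190) and the glycine carrier slc25a38a (-0.22, 0.970). The 4 embryonic and larval globins measured were dim, with 0 called and a median of -0.12, and hbae3, hbbe3 and hbae5 had log2 fold changes of -0.06, -0.17 and -0.56.

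In HBx,src,p53- fish 3 of the 53 genes were called between OF + R and R, where 5.83% of all genes were. Against WT livers with R alone 5 of the 53 were called higher and 1 lower, where 13.8% of all genes were called. Both counts are near these shares. The 3 genes called in both belong to haem synthesis. With 10 Gy alas1, urod, for the enzyme of the fifth step, and abcb10, a mitochondrial transporter linked to haem synthesis, were called lower in OF + R than in R livers, with log2 fold changes of -2.04, -2.10 and -1.86 (limma adjusted p = 0.00807, 0.000287 and 0.00472). The same 3 genes were called higher in HBx,src,p53- than in WT livers with R alone, by 2.27, 2.27 and 2.21 (limma adjusted p = 0.00577, 0.000103 and 0.00162). The 2 results share the HBx,src,p53- R arrays. In these the mean of alas1 was 11.48 ± 0.27 (n = 3), against 9.44 ± 0.62 in HBx,src,p53- OF + R (n = 5) and 9.21 ± 0.22 in WT R livers (SD, n = 2). In the same OF comparison alas2 had a log2 fold change of 0.37, and the test of the difference between these genes was not run. Without arrays 1 and 4 of HBx,src,p53- OF + R urod and abcb10 were still called (-2.11 and -1.96) and alas1 missed the threshold at an adjusted p of 0.0513 (-1.72).

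Among the other erythroid genes calls were few in the remaining comparisons. With R alone zfpm1 and ca2 were also called higher and the zinc finger gene znfl2a lower in HBx,src,p53- than in WT livers. With OF + 10 Gy cahz was called lower in HBx,src,p53- than in WT livers (log2 fold change -1.98, limma adjusted p = 0.0167). It was the 1 gene of the 53 called there, where 1.06% of all genes were. At 40 Gy klf3 was called higher with OF in WT livers (2.24, limma adjusted p = 0.00196) and lower in HBx,src than in WT livers with OF (-1.54, adjusted p = 0.0112). In each of these comparisons klf3 was the 1 gene of the 53 called, where 4.81% and 1.41% of all genes were. Between OF + R and R in HBx,src livers 0 of the 53 were called by limma, where 2.32% of all genes were. At an unadjusted p under 0.05, 5 were higher and 2 lower, and 11.5% of all genes were higher. Between HBx,src and WT livers with R, 0 of the 53 were called, where 2.67% of all genes were. At an unadjusted p under 0.05, 5 were higher and 4 lower, and 8.16% of all genes were lower.

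Old red cells and free haem are cleared in part in the liver, and 10 genes of clearance and iron storage were measured. In WT 10 Gy fish 0 of them were called, where 9.18% of all genes were. Of the 10, 9 were above 0, with a median log2 fold change of 0.88. By limma at an unadjusted p under 0.05, 5 were higher and 1 lower, and 11.8% of all genes were higher. The bright ones were ceruloplasmin (cp, 0.47, limma adjusted p = 0.411), haptoglobin (hp, 0.90, 0.192), which binds free haemoglobin, and the ferritin gene fth1a (0.87, 0.181). In other fish fth1a was called higher with OF in WT 40 Gy livers (1.29, limma adjusted p = 0.0448), the iron exporter slc40a1 in HBx,src livers (2.86, adjusted p = 0.0160) and the haem oxygenase hmox1b in HBx,src,p53- livers (3.73, adjusted p = 0.0200). Each was the 1 gene of the 10 called in its comparison, where 4.81%, 2.32% and 5.83% of all genes were called. The call of hmox1b was lost without arrays 1 and 4 of the OF + R group (limma adjusted p = 0.128). With 40 Gy and R alone hmox1b was called lower in HBx,src than in WT livers (-5.15, limma adjusted p = 0.0185). Its mean was 4.84 ± 0.96 (SD, n = 3) in HBx,src and 9.99 ± 1.33 (SD, n = 2) in WT livers. It was the 1 gene of the 10 called there, where 2.67% of all genes were called.

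The genes whose pattern over the 23 arrays was most like the mean of the 8 members were sought among 10348 genes of at least median brightness, by Pearson's r after centring within each batch. The 8 closest were tmem276a (0.88), the adult beta-globin ba2 (0.87), the inositol phosphate kinase gene ppip5k1b (0.85), the phosphodiesterase gene pde1cb (0.84), cahz (0.84), cyp2k22 (0.84), si:ch211-250g4.3 (0.84) and the kinase gene wnk4b (0.84). Within the 10 Gy arrays alone these values were 0.86 to 0.96, and within the 40 Gy arrays 0.07 to 0.78, so that the likeness lay mainly in the 10 Gy arrays. In WT 10 Gy fish tmem276a averaged 7.35 ± 0.11 with OF + R and 3.8 ± 0.34 with R (SD, n = 2 each), and cyp2k22, a cytochrome P450 gene, 9.95 ± 0.25 and 2.46 ± 0.55. The arrays share batch, scaling and the differences in other cell types given above, and these values are a description. Of the 8 members themselves alas2 followed the mean most closely (0.90) and slc25a37 least (0.21). That mean was taken over signals standardized per gene, and each member is part of it, which raises its r.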

How the data were processed

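Liver RNA of 23 samples was hybridised to Affymetrix ZebGene 1.1 ST arrays. The authors deposited log2 signals per probe set, which they had processed with the Transcriptome Analysis Console. Its version and normalization are not known here. The medians of the 2 batches differ, so that the batches may have been normalized apart. The deposited log2 values were used as they are. Of 75212 probe sets 29618 had 1 gene symbol, 1755 several and 43839 none here. The platform annotation used can be old, and each gene was read on its brightest probe set with a single symbol. Detection calls were not used, and a signal below the array's median is marked as such.

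One model with 8 group means was fitted in limma 3.58.1 (R 4.3.3) with empirical Bayes variances, giving group differences, differences of OF effects, and Benjamini-Hochberg adjusted p-values over all probe sets, with 0.05 as the threshold. Other work was done in Python 3.11.15. The method was tested on simulated data with independent noise, which cannot speak to livers that differ in vtg2 or in cell types. Named besides the 8 genes were the 3 brightest genes of each role and of the clearance list and the 8 with the most similar pattern. Listed genes that were called are also named, as were other probe sets, vtg2 and single arrays, chosen after their values were seen. The members and lists were chosen with earlier results of these data known. Alternatives were other scalings, filters, probe set rules, priors, weights, sample sets and a replicate block. Arrays with the same replicate number were not paired, since the labels give no shared origin.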

Additional observations from a re-analysis of the deposited data

Results flagged for a closer look

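A total of 6 differences between the effects of OF in different fish passed the test of the difference itself in the 8-group limma fit (adjusted p under 0.05). At 10 Gy the effect in HBx,src,p53- minus that in WT fish was -3.03 on the log2 scale for alas2 and -2.44 for gata1a. At 40 Gy the effect in HBx,src minus that in WT fish was 2.64 for slc4a1a. In WT fish the effect at 10 Gy minus that at 40 Gy was 4.74 for alas2, 3.74 for slc4a1a and 4.40 for hbba2, and here dose and batch cannot be told apart. Each WT group has 2 arrays, and HBx,src,p53- OF + R holds arrays 1 and 4 with low vtg2. In WT 10 Gy fish vtg2 was low in both OF + R livers (3.96 and 3.18) and high in both R livers (13.71 and 13.89). The differences at 10 Gy and those between the doses draw on these livers, and the part of vtg2 state in them was not tested. Transgenic and WT fish also differ in genotype and diet together. At 40 Gy they differ in vtg2 as well, with 13.54 to 13.92 in HBx,src and 2.42 to 6.36 in WT arrays. The part of vtg2 state in the difference of slc4a1a there cannot be told apart from that of genotype and diet. Of these 6, gata1a was called in 8 of 10 alternatives and slc4a1a in HBx,src minus WT in 9, and the other 4 in 10 of 10. Their values with single arrays left out are not given here, so these counts of alternatives do not cover that check.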

How the results depend on the processing

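Of the log2 fold changes of the 8 genes in 8 comparisons under the alternatives, 937 kept their direction and their side of the threshold, 39 lost the call, 25 gained one and 63 changed sign. Of the differences of OF effects these numbers were 219, 3, 8 and 7. For alas2 in WT 10 Gy fish the adjusted p in limma stayed within 0.00019 to 0.0134 over 15 alternatives. In WT 10 Gy fish the number of the 8 genes called with OF was 7, but 2 with only the groups compared (alas2 and epb41b), 3 after quantile normalization over all arrays and 3 with the replicate block, and 1 to 3 with an array left out. For OF in WT 40 Gy fish it was 1, but 0 with only the groups compared, a fit that called 0 of all 75212 probe sets. By a fold change of at least 2 with an unadjusted p under 0.05 (the study's thresholds) it was 3, all lower with OF. For OF in HBx,src fish it was 0, but 2 by the study's thresholds, alas2 and hbaa1, which were higher with OF. For HBx,src against WT with R it was 1, but 2 without HBx,src,p53- OF + R arrays 1 and 4, which enter only the shared spread, 3 by the study's thresholds, 0 with only the groups compared, 2 after quantile normalization over all arrays, and 1 to 2 with an array left out. For HBx,src against WT with OF it was 0, but 1 by the study's thresholds. For HBx,src,p53- against WT with OF it was 0, but 7 without arrays 1 and 4, 3 with array weights, 1 without probe sets dimmer than the median probe set, 6 by the study's thresholds, 2 with the mean over all probe sets of a gene, and 0 to 6 with an array left out. In the comparisons of transgenic with WT fish the genes counted by the study's thresholds were all lower in the transgenic fish. The share of all genes that pass these thresholds is not given here, so those counts cannot be set against it. For OF in WT 10 Gy fish the share of all genes called in the other fits is not given here either. The causes were not tested.

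The changes of sign were as follows, none of them in a called value. With the mean over all probe sets of a gene the difference of HBx,src minus WT was 0.42 for epb41b, 0.63 for gata1a and 0.018 for hbaa2, OF in HBx,src gave 0.16 for epb41b and 0.011 for gata1a, OF in HBx,src,p53- 0.57 and OF in WT 40 Gy -0.26 for epb41b, and HBx,src against WT -0.42 for gata1a and -0.0097 for hbaa2. Replicate numbers did not pair the arrays, whose deviations correlated at -0.10 to 0.15. With the replicate block 2 of the 6 called differences of OF effects were not called, that of gata1a in HBx,src,p53- minus WT (limma adjusted p = 0.168) and that of slc4a1a in HBx,src minus WT (adjusted p = 0.133). With the replicate block the difference of HBx,src minus WT was 0.20 for gata1a, that of HBx,src,p53- minus WT -0.044 for slc25a37, OF in HBx,src 0.18 for gata1a and -0.064 for slc4a1a, OF in HBx,src,p53- 0.071 for hbaa2, and HBx,src,p53- against WT with OF -0.15 for slc25a37. With quantile normalization over all arrays the difference between the doses was 0.21 for slc25a37, OF in HBx,src gave 0.055 for epb41b and 0.012 for gata1a, OF in WT 40 Gy 0.12 for gata1a, HBx,src against WT with OF -0.010 for hbaa2, and OF in WT 10 Gy -0.019 for klf3 and -0.053 for tspo. Within each batch these were 0.18, 0.040, 0.018, 0.097, -0.0029, -0.025 and -0.050. With array medians made equal OF in HBx,src gave 0.060 for epb41b and 0.050 for gata1a, and OF in WT 40 Gy 0.13 for gata1a. With array weights OF in HBx,src gave 0.011 for epb41b. With signals raised to the array median, an alternative chosen after seeing the data like that without arrays 1 and 4, OF gave 0.015 in HBx,src and 0.081 in WT 40 Gy for gata1a and 0.19 in HBx,src,p53- for hbaa2. Without arrays 1 and 4 OF in HBx,src,p53- gave -0.21 for alas2, -0.25 for hbaa1 and -0.23 for hbba2.

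With an array left out the sign changed within these ranges. For epb41b they were -0.41 to 0.22 in HBx,src against WT, -0.065 to 0.063 for OF in HBx,src, -0.34 to 0.23 in HBx,src,p53- and -0.10 to 0.95 in WT 40 Gy. For gata1a they were -0.047 to 0.38 in HBx,src against WT with R and -0.32 to 0.70 with OF, and for OF -0.28 to 0.22 in HBx,src, -0.67 to 0.059 in HBx,src,p53- and -0.52 to 0.50 in WT 40 Gy. For hbaa1 they were -0.71 to 0.15 in HBx,src against WT, -0.43 to 1.3 in HBx,src,p53- against WT with R, and -0.013 to 0.84 for OF in WT 40 Gy. For hbaa2 they were -0.017 to 0.35 in HBx,src against WT with R and -0.21 to 0.28 with OF, and for OF -0.32 to 0.10 in HBx,src,p53- and -0.45 to 0.038 in WT 40 Gy. For OF in HBx,src they were -0.035 to 0.77 for hbba2 and -0.064 to 0.23 for slc4a1a. For slc25a37 they were -0.51 to 0.38 in HBx,src,p53- against WT with R, -0.13 to 0.20 with OF and -0.94 to 2.03 for OF in WT 40 Gy. For OF in WT 10 Gy they were -0.16 to 0.031 for hbae3, -0.40 to 0.52 for klf3, -1.51 to 1.07 for slc25a38a and -0.015 to 0.24 for tspo. Equal medians moved the median of all probe sets for OF in WT 40 Gy to 0.07, against -0.08, with 2067 higher and 368 lower, against 1409 and 813 as deposited. Signals near the array median limit hbaa2, and at 40 Gy gata1a, epb41b and slc4a1a.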
